A study of Mus musculus with 3 samples.

Results

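Distal sites of high CTCF ChIP coverage with almost no DNA methylation in the ChIP reads were collected from mouse ES cells. The autosomes were cut into fixed bins of 200 bp, and coverage was the number of observations per CpG in a bin. A bin was called CTCF-enriched if its coverage was at least 15 in each of 2 CTCF ChIP-bisulfite replicates and at most 50 in a whole-genome library of REST knockout cells. It was called distal if its centre lay over 1000 bp from every protein-coding transcription start site (TSS). The bins described here were chosen by their measured ChIP methylation, which was under 10% in each replicate. This left 5459 bins, which are 22.5% of 24232 distal CTCF-enriched bins and a small part of the 7062395 autosomal bins with a listed CpG. They are called unmethylated distal bins below.

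CTCF is a zinc finger protein that binds DNA through a long sequence motif, separates regulatory domains as an insulator and, together with cohesin, holds the bases of chromatin loops. Most CpGs of the mammalian genome are methylated outside CpG islands, while distal regulatory regions bound by transcription factors often show reduced methylation. Methylation of a CpG inside the motif can hinder CTCF binding, as is known from the imprinting control region between Igf2 and H19.

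For CTCF ChIP-BisSeq, DNA pulled down with an anti-CTCF antibody was bisulfite converted and sequenced. The 2 replicates were made from wild type ES cells (mixed 129-C57Bl/6), each from 5 pooled ChIPs. WG-BisSeq was done with 1 library of REST knockout ES cells from the Black Agouti 129 strain, and REST is a repressor of neuronal genes. Genotype, strain and assay differ together between wild type and REST knockout libraries and cannot be told apart. Nothing states that the ChIP replicates came from separate cultures. The libraries hold 13411280, 25262179 and 273375318 observations, with a median coverage of 3, 2 and 6 per listed CpG.

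Shown here are 7 of the named bins that hold an exact match to the CTCF consensus, to let the methylation of single CpGs be read against the motif. Sequences are from the plus strand of mm9, 5′ to 3′, and capitals mark the match of 13 bases. The match lies on the plus strand at Twf2, Epm2aip1 and Hoxd12 and on the minus strand at the other bins. Bins are called by a gene for orientation only, the nearest one or, at Ddc, the imprinted gene whose intron holds the bin.
Twf2, chr9:106114400-106114599: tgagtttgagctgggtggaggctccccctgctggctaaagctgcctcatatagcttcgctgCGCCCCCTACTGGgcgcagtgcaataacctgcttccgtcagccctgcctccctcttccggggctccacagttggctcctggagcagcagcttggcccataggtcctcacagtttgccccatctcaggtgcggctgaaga
Epm2aip1, chr9:111192400-111192599: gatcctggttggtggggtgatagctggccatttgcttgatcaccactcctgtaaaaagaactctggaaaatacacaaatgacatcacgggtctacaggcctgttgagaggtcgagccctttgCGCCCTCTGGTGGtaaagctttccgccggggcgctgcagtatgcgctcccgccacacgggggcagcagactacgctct
Gdi2, chr13:3406000-3406199: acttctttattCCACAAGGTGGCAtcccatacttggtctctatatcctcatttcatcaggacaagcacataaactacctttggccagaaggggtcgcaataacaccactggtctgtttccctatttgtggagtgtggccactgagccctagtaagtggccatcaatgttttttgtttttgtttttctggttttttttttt
Phf21b, chr15:84660000-84660199: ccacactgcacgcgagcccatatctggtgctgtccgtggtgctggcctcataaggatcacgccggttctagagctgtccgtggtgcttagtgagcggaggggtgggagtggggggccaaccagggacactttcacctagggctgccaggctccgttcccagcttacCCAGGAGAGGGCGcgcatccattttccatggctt
Pde4d, chr13:110566400-110566599: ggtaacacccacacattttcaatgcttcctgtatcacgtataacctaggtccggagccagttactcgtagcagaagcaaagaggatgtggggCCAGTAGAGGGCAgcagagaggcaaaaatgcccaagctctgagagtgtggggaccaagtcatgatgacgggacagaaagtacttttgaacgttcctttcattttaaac
Ddc, chr11:11720400-11720599: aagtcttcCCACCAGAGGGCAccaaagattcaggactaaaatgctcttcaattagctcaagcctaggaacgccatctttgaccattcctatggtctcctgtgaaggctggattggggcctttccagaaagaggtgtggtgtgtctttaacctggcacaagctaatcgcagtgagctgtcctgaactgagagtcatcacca
Hoxd12, chr2:74511200-74511399: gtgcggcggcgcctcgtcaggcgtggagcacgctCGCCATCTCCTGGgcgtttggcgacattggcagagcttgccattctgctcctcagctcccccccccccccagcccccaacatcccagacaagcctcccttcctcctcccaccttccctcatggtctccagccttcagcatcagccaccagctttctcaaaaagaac

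At the Twf2 bin, in an intron of a gene for an actin-binding protein, the match starts with a CpG. Its methylation was 2.89% of 242 observations in replicate 1, 2.42% of 537 in replicate 2 and 1 of 20 in REST knockout cells. Methylation of all 6 CpGs of the bin ranged from 1.42% to 12.7% in replicate 1, and the highest lay 45 bp from the match. The intergenic bin near Epm2aip1 had a CpG at the same place of its match, with 0 of 219, 11 of 413 and 2 of 19 observations methylated. At Hoxd12, a homeobox gene of the HoxD cluster, the CpG of the match was read as methylated in 0 of 16, 0 of 50 and 4 of 19 observations. ChIP values at these 3 matches were low in bins that were chosen for low ChIP methylation, and REST knockout values rested on 20 observations or fewer. The printed match at Phf21b also holds a CpG, with 5 of 31, 2 of 34 and 8 of 12 observations methylated.

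Coverage and methylation in the ChIP libraries describe how the bins were chosen. Median coverage was 44.6 in replicate 1 and 49.3 in replicate 2, and the median bin held 164 and 185 observations. Median methylation was 3.66% and 4.14%, and 2395 bins were under 5% in both replicates. No methylated observation was found in 943 bins in replicate 1, in 519 in replicate 2 and in 269 in both. Replicate 2 had a higher coverage in the median bin, by a ratio of 1.15. Across the 5459 bins, coverage correlated between replicates with a Spearman's rho of 0.70 and methylation with 0.32. All points share both libraries, coverage is at least 15 in each replicate by choice, and methylation is cut at 10%. Within these limits, the order of bins by coverage was more alike between replicates than their order by methylation.

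Ranked by the lower of the 2 replicates, the highest coverage was found at a bin with a single CpG in an intron of Col18a1, which encodes a basement membrane collagen. Here 0 of 241 observations were methylated in replicate 1, which allows a share of up to 1.24%. In replicate 2, 11 of 511 observations were methylated, and in REST knockout cells 1 of 15. An exonic bin of Fam129b followed, which had the highest coverage of all in replicate 2 (614.8 per CpG against 511 at Col18a1), with 179 of 2165, 533 of 6148 and 35 of 163 observations methylated. At the Epm2aip1 bin the counts were 6 of 1755, 103 of 4077 and 12 of 170. A bin 10961 bp from the TSS of Sync, an intermediate filament gene, was low in every library, with 43 of 2261, 69 of 2920 and 2 of 119 observations methylated. The bin in the Gdi2 region, 131221 bp from that TSS, had 10 of 190 and 10 of 297 methylated observations in ChIP but 4 of 5 in REST knockout cells, which is too few to be tested. A bin 1747 bp from the TSS of Rfx7, a transcription factor gene, had 38 of 1558, 68 of 3294 and 9 of 43. In the exact binomial tests the REST knockout share was called both above 10% and below 50% at Fam129b (adjusted p = 1.40e-05 and 6.98e-12) and at Rfx7 (adjusted p = 0.0258 and 0.00335). REST knockout levels at the bins of strong ChIP coverage were thus low at some and intermediate at others.

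Bins near the limit of 10% are given as a description. Just inside were a bin near Gm996 with 9.97% and 8.47% in the replicates, a bin near Slc25a48 with 8.26% and 9.97% and a bin near Foxo6 with 9.96% and 9.62%. Just outside were bins near Tcfap2b with 10.0% and 0.0%, near Gm8251 with 10.0% and 0.855% and in an intron of Plcl1 with 7.69% and 10.0%. The replicate that failed the limit at Tcfap2b had 2 of 20 methylated observations and at Plcl1 4 of 40, so that a single observation decided on which side these bins fell.

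To ask if the low methylation is found again in data that did not choose the bin, CTCF-enriched distal bins were picked from replicate 1 alone and read in replicate 2. Of 6720 bins under 10% in replicate 1, 5459 were also under 10% in replicate 2, which is 81.2% (exact 95% interval 80.3 to 82.2). The share among all 24232 distal enriched bins in replicate 2 was 34.1%. In the opposite direction, 8252 bins were picked from replicate 2, of which 66.2% (65.1 to 67.2) were under 10% in replicate 1, where the share of all was 27.7%. At 50% or more in the other replicate were 16 of the 6720 and 77 of the 8252 bins. Most low bins were therefore low in both replicates, with more loss when the bins were picked from replicate 2. Coverage of at least 15 in both replicates was required in either direction. The intervals count bins as independent although all share the same 2 libraries, so they do not measure how well the share repeats.

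REST knockout methylation was not used to choose the bins and serves as the independent measure. It could be given for 3903 of the 5459 bins, those with at least 10 observations. Median methylation of these bins was 11.02%, with quartiles of 5.41% and 20.7% and values from 0% to 100%. For comparison, the median was 38.1% in 3694 distal enriched bins with 20 to 60% ChIP methylation, 62.5% in 599 bins with 60% or more, and 72.4% in all 2800103 distal bins with enough observations. At enriched bins within 1000 bp of a TSS it was 7.14% at any ChIP methylation and 5.41% with under 10% in each replicate. All distal enriched bins, at any ChIP methylation, had 25%. On each of 19 autosomes the median was lower in the unmethylated bins, from 9.62% to 13.3%, than in the 20 to 60% bins, from 35.1% to 41.9%. The unmethylated distal bins therefore had a lower REST knockout median than the other distal sets, with a spread that reached high methylation. Under 10% in REST knockout cells were 1775 of the 3903 bins (45.5%).

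**Figure D1:**
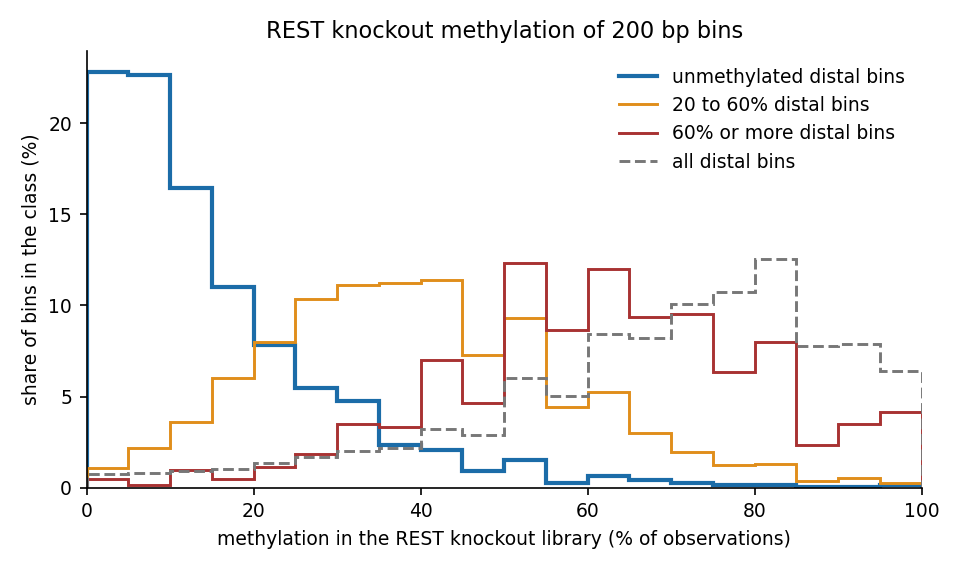
Share of bins in each class (y axis, percent) by methylation in the REST knockout library (x axis, percent of observations, steps of 5) for 200 bp bins with at least 10 observations. Unmethylated distal bins lie mostly left of 20%, bins with 20 to 60% ChIP methylation around their median of 38.1% and all distal bins around 72.4%.

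The share of methylated observations in each bin was tested against fixed levels with one-sided exact binomial tests and Benjamini-Hochberg adjustment over all 2800103 bins. A share above 10% was called in 1048 unmethylated bins or 26.9%, while the same call was made in 95.2% of all distal bins tested. A share below 50% was called in 2936 bins or 75.2%, against 3.83% of all distal bins. Both calls held for 432 bins, which lay between the levels, and 616 bins were above 10% without being called below 50%. In the 20 to 60% class, the calls were made in 82.9% and 21.01% of bins. These tests cover counting error in 1 library only, since there is no second REST knockout library.

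REST knockout levels can also be given as counts of bins. Under 10% were 1775 of 3903 bins (45.5%), between 10% and 20% were 1070 (27.4%), between 20% and 50% were 915 (23.4%) and at 50% or above were 143 (3.66%). Bins under 10% had a median of 83 REST knockout observations, bins at 50% or above 17. Spearman's rho between REST knockout coverage and methylation was −0.38 over the 3903 bins, which share 1 library. Thus depth differed along with the level, and its part in the result was not tested. Among 2548 bins with at least 30 observations the median was 9.46%, and 1.22% of them were at 50% or above. The 1556 bins under 10 observations, with a median of 4, had a lower GC content of 44.5% and fewer CpGs, with a median of 2, and remain without a REST knockout value here.

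Methylation rose on both sides of the bins. In REST knockout cells the median was 23.9% and 23.7% in the adjacent bins, 41.7% and 42.6% at 400 bp and 63.6% and 64.1% at 2000 bp. In the ChIP libraries, coverage fell from a mean of 46.3 and 57.9 per CpG in the bin to 18.2 and 26.2 in the bin on the left and to 1.51 and 2.46 at 2000 bp. REST knockout coverage was about even, with 15.8 in the bin and 13.9 at 2000 bp on the left. The dip in REST knockout methylation was therefore wider than 1 bin and lowest in the chosen bin. High ChIP coverage in that bin follows from the choice. Most unmethylated bins stood alone: 4109 had no unmethylated neighbour, 635 runs held 2 bins, 24 held 3 and 2 held 4. The 3 longest runs named by the rule were 8256 bp from the TSS of the histone gene Hist2h2bb, 1391 bp from that of the glutamate transporter gene Slc17a7, both of 800 bp, and 6727 bp from that of 1700001O22Rik. Their summed REST knockout methylation was 5.19%, 11.2% and 6.90%.

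**Figure D2:**
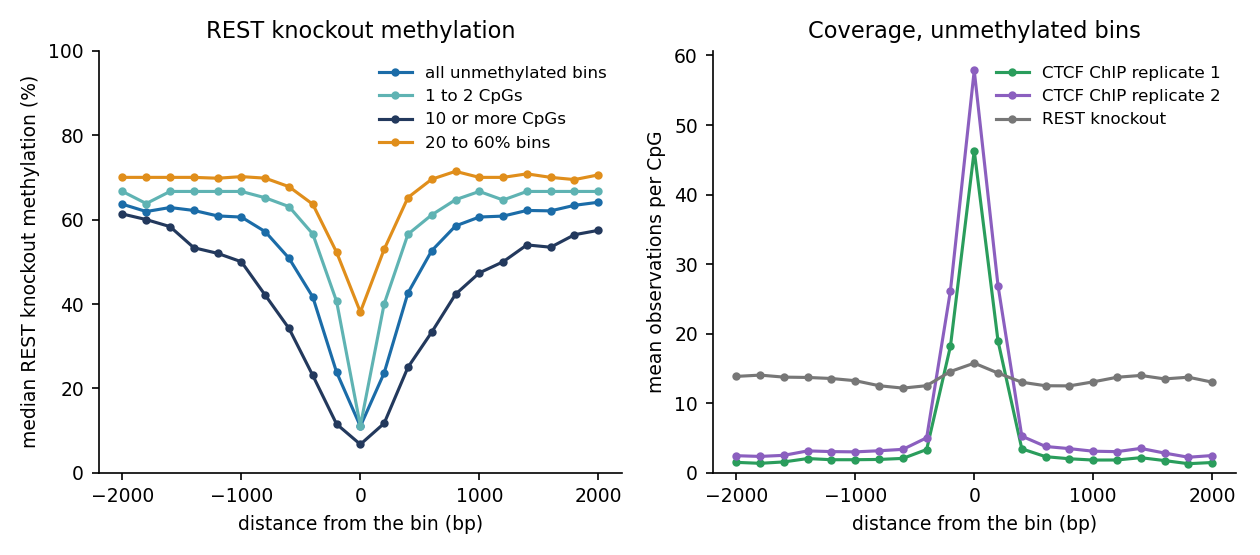
Left, median REST knockout methylation (percent) of bins by distance from the bin (bp) for all unmethylated distal bins, those with 1 to 2 and with 10 or more CpGs and bins with 20 to 60% ChIP methylation. Right, mean observations per CpG in each library around the unmethylated bins. The dip from 63.6% at 2000 bp to 11.02% in the bin is narrower for bins with few CpGs. ChIP coverage is highest in the bin, which was chosen for it.

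To relate methylation to CpG density, the bins were divided by their number of CpGs. The median bin had 4 CpGs, 1787 bins had 1 to 2, 1715 had 3 to 5, 1132 had 6 to 9 and 825 had 10 or more. In this order the median REST knockout methylation was 11.1%, 14.3%, 12.6% and 6.74%, compared to 70.6%, 73.3%, 73.4% and 62.1% for all distal bins with as many CpGs. The 20 to 60% bins had 36.4%, 38.9%, 37.8% and 33.5%. In every class of CpG number the REST knockout median was thus below those of both other sets, and it was lowest in the densest class. The surroundings differed more: next to bins with 1 to 2 CpGs the median was 40.6% and 40%, and next to bins with 10 or more it was 11.6% and 11.7%. Of the bins with 1 to 2 CpGs, 660 had enough observations to be given a value, compared to 823 of those with 10 or more.

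**Figure D3:**
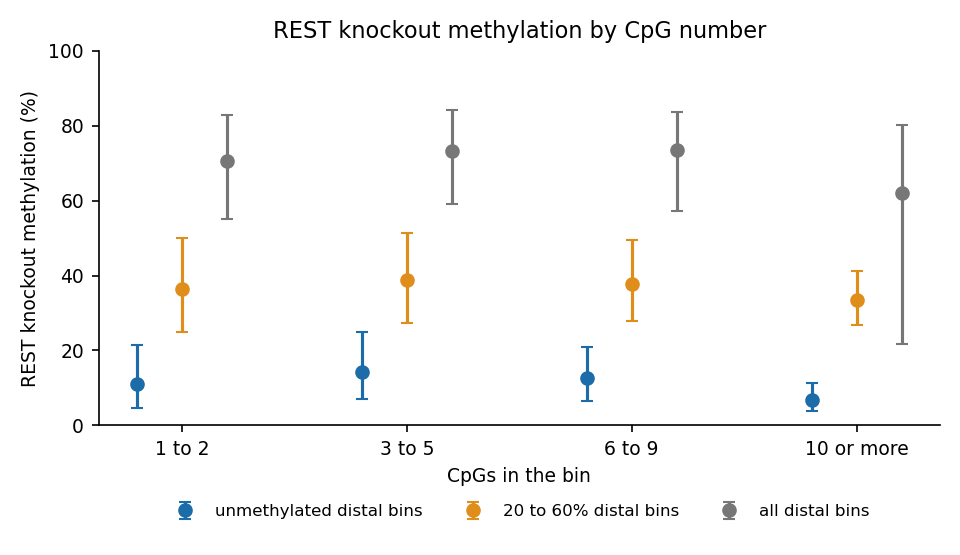
REST knockout methylation (percent) by number of CpGs in the bin for unmethylated distal bins, 20 to 60% bins and all distal bins. Points are medians and bars run from the lower to the upper quartile. Medians of the unmethylated bins lie between 6.74% and 14.3% in each class, below both other sets.

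By annotation, 3307 unmethylated bins (60.6%) were intergenic, 1729 (31.7%) intronic and 423 (7.75%) exonic. Among all distal bins these shares were 53.9%, 42.0% and 4.13%. The median distance to a protein-coding TSS was 14266 bp, 1273 bins lay within 5 kb and 1005 over 50 kb away. A TSS of a noncoding gene, or of a noncoding transcript of a coding gene, was within 1000 bp of 331 bins (6.06%). Their REST knockout median was 9.35%, compared to 11.1% in the other 5128 bins. Exonic bins had 8.83%, intronic bins 11.7%, intergenic bins 11.2% and bins over 50 kb from a TSS 12.9%. Hence location shifted the median by a few percentage points at most, and exonic bins also held more CpGs, with a median of 9.

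An exact CTCF consensus match was found in 1695 bins (31.0%) and in 0.590% of all distal bins. With 1 mismatch allowed outside 3 conserved positions the shares were 61.2% and 1.96%, and within 600 bp around the bin an exact match was found for 40.4% and 1.81%. The 20 to 60% bins held an exact match in 26.7% and the bins of 60% or more in 29.4%. Matches lay on the plus strand alone in 840 bins and on the minus strand alone in 853. The share fell with CpG number, from 38.9% of bins with 1 to 2 CpGs to 14.8% of those with 10 or more. REST knockout methylation was close with and without a match, with medians of 11.8% and 10.8%. Median ChIP coverage was 51 and 54.8 in bins with a match and 41.3 and 47.4 in bins without. In 1645 bins there was no match, neither with 1 mismatch in the bin nor exact within 600 bp. Their median ChIP coverage was 35.5 and 43.3, compared to 48 and 52.2 in the other 3814. Whether CTCF was bound at them was not tested. Here a match only says that these letters stand in the bin.

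Other short motifs were counted on both strands. GGGCGG, the core of the GC box, was found in 700 bins (12.8%) and in 2.67% of all distal bins. Among bins with 10 or more CpGs it was in 34.3%, compared to 22.9% of all distal bins with as many CpGs. The E-box CACGTG was in 3.76% and 3.02%, and the octamer ATGCAAAT in 0.971% and 1.42%. Within each class of CpG number, however, CACGTG was rarer in unmethylated bins than in all distal bins. Its shares were 1.73% against 1.99% with 1 to 2 CpGs and 5.58% against 5.88% with 10 or more. The cAMP response element TGACGTCA was in 16 bins (0.293%, against 0.155%) and TTCAGCACC, the left part of the REST consensus, in 16 bins (0.293%, against 0.222%). With 10 or more CpGs these shares were 0.848% and 0.121%, against 1.96% and 1.92% of all distal bins. With 6 to 9 CpGs they were 0.530% and 0.707%, against 0.458% and 0.508%. The 15 bins with TTCAGCACC and enough observations had a REST knockout median of 15.9%. Among these short motifs the GC box thus differed most in its share from all distal bins, and it was found in 3.13% of bins with 1 to 2 CpGs.

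Next, single CpGs were placed relative to the match in the 1682 bins with 1 match. A CpG lay in the match in 1046 of them. Summed methylation of CpGs in the match was 1.56% and 2.64% in the ChIP replicates and 10.8% in REST knockout cells (exact 95% interval 10.2 to 11.4). At 1 to 20 bp it was 2.32%, 3.17% and 9.95%, and at 51 to 100 bp 9.47%, 7.04% and 13.2%. Coverage fell over the same distance from 69.3 to 39.0 in replicate 1, while REST knockout coverage went from 9.42 to 13.3. Since the bins were chosen by their summed ChIP methylation, to which the well covered CpGs in and next to the match contribute most per CpG, the ChIP values are a description only. In REST knockout cells, whose methylation the choice did not use, it was 10.9% at 21 to 50 bp and 12.8% over 100 bp. The exact interval at 51 to 100 bp, 12.6 to 13.7, lay above that in the match. These intervals pool observations of many bins in 1 library and cover counting error only. How far the choice by ChIP methylation shaped this difference was not tested. In 316 bins with at least 10 REST knockout observations both in the match and outside it, the CpG in the match was lower in 223 and higher in 76, with medians of 6.25% and 9.74%. Numbers of CpGs and observations were not matched between the match and the rest of the bin, and their part in this count was not tested. CpGs in a match can stand only where the consensus letters allow one. Of 1082 such CpGs, 1017 were at its first letters and 65 stood further inside.

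**Figure D4:**
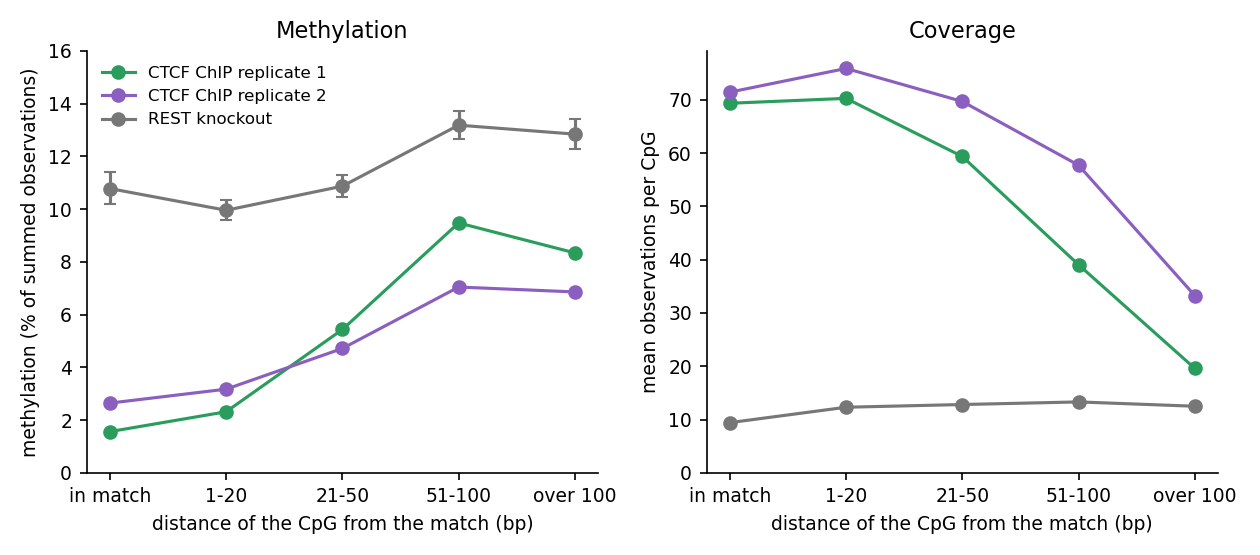
Left, methylation (percent of summed observations) of CpGs in unmethylated distal bins by distance from the CTCF consensus match (bp) in the 3 libraries, with exact 95% intervals for REST knockout cells. Right, mean observations per CpG. Replicate 1 rises from 1.56% in the match to 9.47% at 51 to 100 bp. REST knockout cells have 10.8% in the match, 9.95% at 1 to 20 bp and 13.2% at 51 to 100 bp.

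Low methylation of a bin did not mean that every CpG was low. Of 25995 CpGs with at least 10 observations in each ChIP replicate, 19914 (76.6%) were under 10% in both, and 4506 had no methylated observation. At 20% or more in both were 321 CpGs in 304 bins. In REST knockout cells, 17073 CpGs had at least 10 observations, with a median of 6.45%. Of these, 4531 had no methylated observation and 189 were at 50% or above.

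Some bins, all under 10% in ChIP by choice, had high REST knockout methylation, and those with the highest level from at least 20 observations are named. At the Phf21b bin, shown above, 8 of 193 and 18 of 216 observations were methylated in ChIP and 122 of 161 (75.8%) in REST knockout cells (exact 95% interval 68.4 to 82.2). The share was above 10% in the exact binomial test (adjusted p = 3.45e-85). The CpG in the match had 5 of 31, 2 of 34 and 8 of 12 methylated observations, and the 5 CpGs furthest from it had no methylated observation in replicate 1 but between 50.0% and 92.3% in REST knockout cells. So here the whole bin was high in REST knockout cells, not single CpGs.

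The same rule named 9 further bins. A bin near Sdk1, an adhesion molecule of neurons, had 8 of 317, 14 of 384 and 115 of 165 methylated observations. An intergenic bin 129046 bp from A430005L14Rik had 3 of 118, 3 of 231 and 106 of 149. A bin 1258 bp from Igfbp4, which encodes an insulin-like growth factor binding protein, had 4 of 361, 25 of 382 and 34 of 49. In each of them the exact REST knockout interval lay above 50%, at the lowest from 54.6%. Since the named bins were picked by this same level, their intervals only describe counting error. The other bins named for this reason were near Pde4d, a cAMP phosphodiesterase gene, and near Gm6483, Gsta4, Arhgap27, Cntnap4 and Psd2. They had between 20 and 39 REST knockout observations and levels from 68.2% to 75%. Overlap of the exact intervals with 50% was seen at Cntnap4, from 49.8%, and at Psd2, from 45.1%.

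Among all 143 bins at 50% or above, 57 had at least 20 observations. ChIP coverage of the 143 bins was 45.5 and 50.5 in the median, close to all unmethylated bins. A CTCF consensus match was found in 35.7% of them and in 26.9% of the 1775 bins under 10%. Their neighbours at 200 bp had medians of 47.1% and 42.9% in REST knockout cells. Coverage in REST knockout cells was lower, with a median of 4.17 per CpG compared to 15.8 in bins under 10%, and its part was not tested.

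At the opposite end stood bins without any methylated REST knockout observation. A bin 7958 bp from Pllp, which encodes a myelin membrane protein, had 4 of 690, 8 of 696 and 0 of 185, which allows a share of up to 1.62%. The bin 1037 bp from Nipbl, the cohesin loader, had 4 of 528, 14 of 676 and 0 of 145, allowing up to 2.07%. Bins near Commd7 and Msgn1, a regulator of presomitic mesoderm, had 0 of 130 and 0 of 104 in REST knockout cells. None of these 4 bins held an exact CTCF consensus match, and those near Pllp and Msgn1 held GGGCGG.

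The bins were also followed near genes of known roles, with distances taken to the nearest start of any annotated transcript of the gene. Within 50 kb of a TSS of 24 annotated pluripotency genes lay 85 distal enriched bins, of which 28 (32.9%) were unmethylated, against 22.5% of all. For imprinted genes it was 20 of 69 bins, for Hox genes 20 of 35, for clustered protocadherins 17 of 26, for CTCF and cohesin genes 16 of 41 and for developmental transcription factors 43 of 108. No bin near protocadherins held an exact match, compared to 11 of the 28 near pluripotency genes. Median REST knockout methylation was lowest near CTCF and cohesin genes, with 5.33% in 12 bins, and highest near pluripotency genes, with 16.04% in 24 bins, compared to 11.02% over all. Bins were called above 10% in 10 of 24 near pluripotency genes, 7 of 17 near imprinted genes, 5 of 17 near Hox genes, 5 of 14 near protocadherins, 2 of 12 near CTCF and cohesin genes and 14 of 41 near developmental factors. Calls below 50% were made in 16, 9, 15, 9, 10 and 34 of these bins. Over all unmethylated bins with a value the shares called were 26.9% and 75.2%, and over all distal bins 95.2% and 3.83%. Since the lists are short and share neighbourhoods, these counts are a description.

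Pluripotency genes keep ES cells undifferentiated. At Zfp42, a marker of this state, an intronic bin 1063 bp from the TSS had 2 of 135, 10 of 188 and 24 of 80 methylated observations, and REST knockout methylation of 30.0% was above 10% (exact binomial test, adjusted p = 7.75e-07) and below 50% (adjusted p = 0.00803). In an exon of Klf4 the counts were 16 of 307, 7 of 350 and 19 of 404, and in an intron of Mycn 10 of 186, 12 of 511 and 8 of 10. The bins therefore ranged in REST knockout cells from 4.70% at Klf4 to 80.0% at Mycn, the latter from 10 observations and an interval from 44.4% to 97.5%.

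At imprinted genes, which are expressed from 1 parental allele, an intronic bin of H13 had 6 of 190, 8 of 193 and 6 of 17 methylated observations. The Ddc bin shown above had 5 of 60, 1 of 58 and 2 of 16, with both of its CpGs outside the match. In an intron of Peg3 it was 16 of 195, 25 of 289 and 24 of 104, and the REST knockout share of 23.1% was called both above 10% and below 50% (exact binomial test, adjusted p = 9.12e-05 and 1.18e-06). REST knockout values at these named bins were above both ChIP values, which the choice of bins held under 10%, and the intervals of H13 and Ddc were wide. All 17 unmethylated bins near imprinted genes with enough observations ranged in REST knockout cells from 0% to 41.9%, with a median of 15%.

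Hox genes, which pattern the body axis, held bins with more CpGs. The Hoxa6 bin, 345 bp from the TSS of a noncoding transcript of this gene, had 17 CpGs and 8 of 640, 7 of 735 and 29 of 662 methylated observations. The Hoxd12 bin shown above had 5 of 217, 4 of 310 and 49 of 198, and the bin near Hoxd8 7 of 322, 9 of 217 and 6 of 55. REST knockout methylation of 24.7% at Hoxd12 had an exact interval of 18.9% to 31.4%, and its 9 CpGs lay between 17.6% and 28.6%.

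Near clustered protocadherins, adhesion molecules expressed in different sets by single neurons, a bin 2219 bp from Pcdhb18 had 8 of 130, 5 of 240 and 24 of 129 methylated observations. Of the bins near Pcdhgc5, one had 21 of 329, 20 of 354 and 24 of 46, while another, 4327 bp away, had 0 of 214, 5 of 199 and 0 of 47. These neighbours thus differed in REST knockout cells, from 52.2% to 0 of 47 observations, which allows up to 6.38%.

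For genes of CTCF and cohesin, beside the Nipbl bin given above, a bin 5452 bp from Smc3, a cohesin subunit, had 6 of 81, 12 of 125 and 1 of 14 methylated observations. Among developmental transcription factors, the bin of Neurog2, a factor of neurogenesis, had 12 of 1220, 45 of 1264 and 26 of 913. A bin 1239 bp from Pax2 had 6 of 103, 15 of 160 and 8 of 10. The CpG-rich bin of Neurog2 was low in all libraries, whereas the Pax2 bin with 3 CpGs was high in REST knockout cells from 10 observations.

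**Figure D5:**
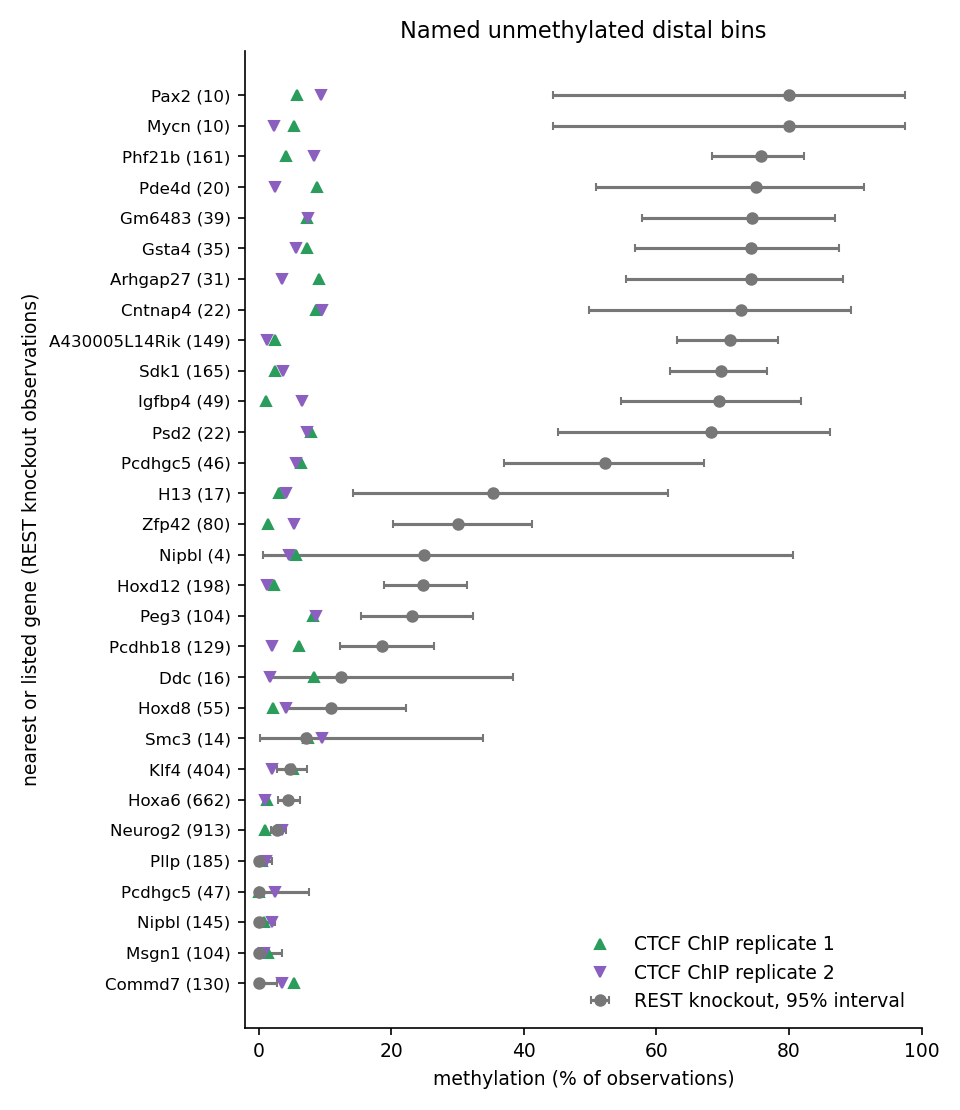
Methylation (percent of observations, x axis) of named unmethylated distal bins in each ChIP replicate (triangles) and in REST knockout cells (circles with exact 95% intervals), ordered by REST knockout level and labelled by gene with REST knockout observations in parentheses. All ChIP values are under 10%, while REST knockout values run from 0 at Pllp to 80.0% at Mycn and Pax2.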

How the data were processed

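The authors deposited, for each library, whole-number counts per CpG of all and of methylated observations, without normalization. Each CpG is listed once, at its plus-strand C, and whether observations of both strands were combined there is not given in the sources used here. Per the submitters' processing notes, mm9 and Bowtie 0.10.0.1 were used, without stating the role of the tool. Whether PCR duplicates were removed is not given in the sources used here, so intervals and limits cover counting error only.

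Counts were summed over 200 bp bins in Python 3.11.15 (pandas 2.3.3, NumPy 2.4.6), tests used SciPy 1.17.1 and plots matplotlib 3.10.9. TSS are starts of protein-coding transcripts in GENCODE vM1 (mm9). Intervals are Clopper-Pearson at 95%, and for a count of 0 the limit is 3 counts of the total. One-sided exact binomial tests of REST knockout counts, with Benjamini-Hochberg adjustment and adjusted p under 0.05, ran on all distal bins with at least 10 observations and coverage of at most 50, and were tested on simulated data.

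Members, gene lists and tests were chosen with earlier results of these data known. Named bins are those with the highest ChIP coverage, the highest REST knockout methylation from at least 20 observations, the most REST knockout observations without methylation, those nearest to a listed gene, the longest runs and those next to the methylation limit. Alternatives changed the limits of the rule, the grid, the TSS set, the minimum of observations and the tested levels, and left out each ChIP replicate. The values of 2 bins that the naming rule selects are not reported here.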

Additional observations from a re-analysis of the deposited data

How the results depend on the processing

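The number of unmethylated distal bins was 5459, and it was 2395 with methylation under 5%, 10073 under 20% and between 7153 and 9578 when the rule was applied to 1 ChIP replicate, the larger number without replicate 1. Median REST knockout methylation moved from 11.02% to 8.64% and 14.3% with these limits, to 11.8% and 9.46% with at least 5 and 30 observations, and to between 12.2% and 12.9% without 1 replicate. Calls above 10% went from 1048 to 344 and 2508 with methylation under 5% and 20%, to 629 with at least 30 observations, to 346 against a level of 20%, and to between 1420 and 2036 without 1 replicate. As a share of the bins tested these were 26.9%, 21.1%, 35.7%, 24.7%, 8.86% and 30.0% to 31.4%. Calls below 50% went from 2936 to 1298 and 4779, to 1650 against a level of 30%, and to between 3389 and 4569, which are 75.2%, 79.6%, 68.0%, 42.3% and 70.6% to 71.6% of those tested. With at least 30 observations 2384 calls were made, or 93.6%.

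The share of low bins found again, 81.2%, was 66.2% with replicates exchanged, 77.8% and 85.3% with a minimum coverage of 10 and 25, and 60.5% and 90.9% with limits of 5% and 20%. The share with a CTCF match, 31.0%, was 29.1% and 34.5% with these coverages, 32.5% with methylation under 5%, 33.0% over 5 kb from a TSS, 40.4% in 600 bp, 61.2% with 1 mismatch, and between 28.2% and 30.2% without 1 replicate. The number of bins and calls stayed within 1.5 times with a grid shifted by 100 bp, without a limit on REST knockout coverage and with a TSS of every annotated gene. A TSS of every transcript of protein-coding genes, chosen after seeing the data, gave 5305 bins. No paired analysis was possible because the only numbered replicates belong to 1 group. Of bins with 1 to 2 CpGs, 36.9% had enough REST knockout observations for a value.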

Other observations

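On the X chromosome, which was not part of the autosomal set, the same rule gave 112 unmethylated bins among 314 distal CTCF-enriched bins (35.7%). Of these, 61 had at least 10 REST knockout observations, with a median methylation of 10.4% and quartiles of 4.45% and 21.4%. The median was 27.3% in 24 bins with 20 to 60% ChIP methylation and 69.0% in 73626 distal bins of this chromosome. ChIP coverage of the 112 bins was lower than on autosomes, with medians of 29.1 and 27.0.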
